A study of Mus musculus with 6 samples.

Results

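The genes described here are 10 surface and marker genes by which pericytes are told from other stromal cells, namely Cspg4, Mcam, Anpep, Esam, Steap4, Vtn, Tinagl1, Sncg, Rasl12 and Ptp4a3. They were chosen by gene symbol, as the rows of the deposited table with exactly these names, and each symbol matched 1 of its 49548 genes. Cspg4, Mcam, Anpep, Esam and Steap4 encode proteins of the cell surface or membrane, Vtn and Tinagl1 are secreted, and the remaining members act inside the cell. Apart from Anpep, Vtn and Steap4, they are among the mural genes that the study itself picked out with these same libraries, so the direction of those members is not independent evidence.

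Pericytes are mural cells that wrap capillaries and small venules and share a basement membrane with the endothelium. They contract weakly, secrete matrix, and are held to the vessel by platelet-derived growth factor from endothelial cells acting on PDGFRb. No single gene marks them: proteoglycans and adhesion molecules such as NG2 and CD146 are shared with smooth muscle or endothelium, and CD13 with myeloid and brush-border cells, so a panel of genes is usually read together.

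The study sequenced 3′ mRNA of cancer-associated fibroblasts (CAFs) sorted from colonic adenomas, in 3 libraries of Col6a1+ and 3 of Col6a1- CAFs. All libraries came from C57/BL6 mice carrying Col6a1-cre and the Rosa26-mTmG reporter. In this reporter Cre replaces membrane Tomato by GFP, so Col6a1+ (GFP+) CAFs are cells in which the Col6a1 promoter drove Cre, or their descendants, and Col6a1- (Tomato+) CAFs are the others. Every mouse received azoxymethane (AOM), a colon carcinogen, at 8 to 10 weeks of age, followed by 3 cycles of 2.5% dextran sulfate sodium (DSS) in the drinking water with 14 days of water after each, both sexes were used, and each library is a pool of tumors from 5 to 6 mice. Both groups were depleted of cells bearing CD45, EpCAM, CD31 or Ter119. Libraries are not tied to single animals, so the spread reported here is that between pools.

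Summed normalized counts, which are read counts divided by the authors' size factors, lay between 3039152 and 3425249 per library. Col6a1+ replicate 1 stood apart, with 14530 genes detected against 18770 to 20511 in the other libraries. The sort was by the reporter and not by Col6a1 RNA, so Col6a1 is only a rough check of it. Col6a1 averaged 1363 ± 544 normalized counts in Col6a1+ libraries and 202 ± 111 in the others (SD, n = 3 each). This is a log2 fold change of 2.82, with a standard error (SE) of 0.44 and a limma adjusted p of 0.00613. The lowest value over the alternatives tried was 1.07. With the replicate numbers as a block the limma adjusted p was 0.0983, and Col6a1 passed in 2 of the 6 fits that left out 1 library. Summed epithelial markers reached 5928 to 6646 in Col6a1+ and 20249 to 34468 in Col6a1- CAFs, although EpCAM was a depletion marker, and Epcam itself was at 615 to 1074 and at 3107 to 4129. The 10 pan-fibroblast genes summed to 42801 to 48952 in Col6a1+ and 9253 to 16702 in Col6a1- CAFs. In these bulk libraries, fewer cells of a type and less RNA per cell cannot be told apart.

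The pericyte surface and marker genes were mostly higher in Col6a1+ than in Col6a1- CAFs. The proteoglycan gene Cspg4, the adhesion genes Esam and Mcam, the matrix genes Vtn and Tinagl1, and the intracellular Rasl12 and Ptp4a3 rose, with log2 fold changes between 1.92 and 6.15. Anpep, Sncg and Steap4 did not pass the test. In the limma fit over 26402 genes, 7 of the 10 passed an adjusted p of 0.05 as higher in Col6a1+ CAFs, where 2.66% of all genes tested did, and 0 passed as lower, against 1.96% of all. With the replicate numbers as a block over the same genes the calls ended, as 0 of the 10 passed, and 0 of all 26402 genes. At a limma unadjusted p under 0.05 in that fit 9 members were higher, beside 1851 of all genes tested. Among the 13515 genes averaging 10 or more normalized counts, as each member did, the fit without the block called 5.15% higher and 3.67% lower. Vtn, Sncg and Rasl12 reached that average only through the Col6a1+ libraries, with Col6a1- means of 2.33, 6.0 and 8.0. By the looser rule of an unadjusted p under 0.05 plus a log2 fold change beyond 1 either way, the members numbered 9 higher and 0 lower, beside 6.09% and 8.61% of all genes tested. All Col6a1+ libraries exceeded all Col6a1- libraries for 9 of the 10, which held for 7.91% of all genes tested and for 14.2% of those averaging 10 or more, and the reverse held for 11.6% of all genes. The exception was Steap4. The members' median log2 fold change was 3.41, beside -0.27 for all genes tested and -0.15 for those averaging 10 or more. The whole table had 703 genes called higher and 517 lower, and 210 and 8293 when libraries were scaled to equal sums over the pan-fibroblast genes, which moved the median of all genes by -1.05. Under that scaling 6 members passed as higher and 0 as lower.

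**Figure D1:**
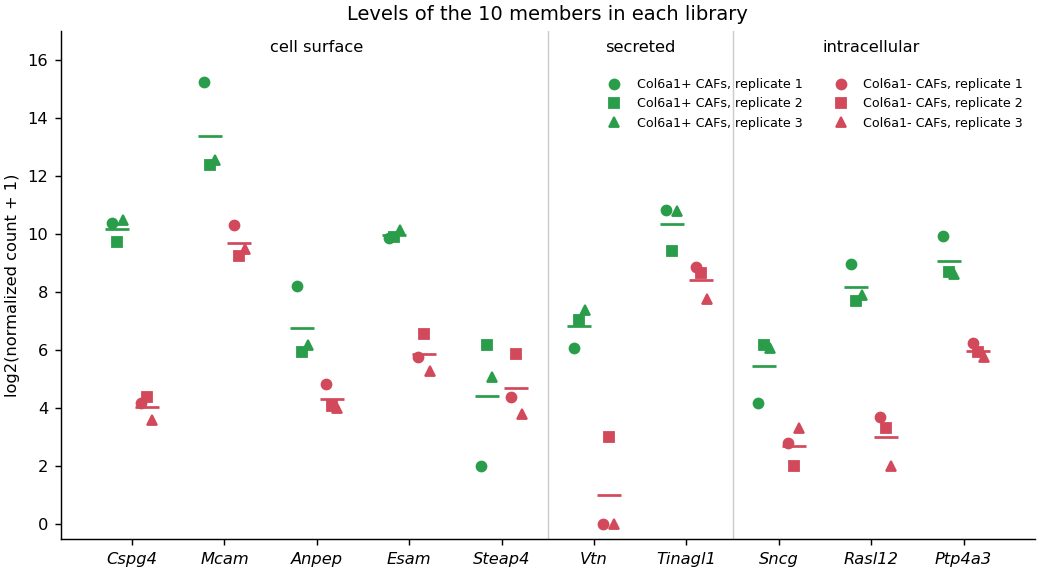
Log2 of the normalized count plus 1 of the 10 members, with a symbol for each replicate of Col6a1+ (green) and Col6a1- CAFs (red) and a bar at the mean of each group's log2 values. The Col6a1+ libraries lie above all Col6a1- libraries for 9 members, and for Steap4, at 3 to 72 against 13 to 58 normalized counts, the groups overlap.

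To give the sequence context of the members, the 250 bases upstream of the transcription start were read from the RefSeq promoter table on GRCm38.p6, the build of the mm10 coordinates, which held 8 of the 10 members. Esam and Ptp4a3 had no entry. The windows below are those of Cspg4, the surface gene with the largest difference between the groups, of Mcam, the gene whose Col6a1+ replicate 1 stood furthest above the others, of Vtn, a secreted gene at 0 in some Col6a1- libraries, and of Steap4, the member whose groups overlapped. They lie at chr9:56864854-56865103, chr9:44134408-44134657, chr11:78498870-78499119 and chr5:7960222-7960471, all on the plus strand. Their last bases lie 70, 188, 28 and 14 bases beyond the gene starts of the deposited table, whose annotation differs from RefSeq. They are written 5′ to 3′ with motif matches in capitals.
Cspg4: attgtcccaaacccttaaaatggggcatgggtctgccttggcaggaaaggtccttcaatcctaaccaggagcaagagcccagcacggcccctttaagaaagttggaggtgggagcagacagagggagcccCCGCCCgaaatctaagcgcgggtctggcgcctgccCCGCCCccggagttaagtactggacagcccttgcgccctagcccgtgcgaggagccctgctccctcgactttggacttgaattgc
Mcam: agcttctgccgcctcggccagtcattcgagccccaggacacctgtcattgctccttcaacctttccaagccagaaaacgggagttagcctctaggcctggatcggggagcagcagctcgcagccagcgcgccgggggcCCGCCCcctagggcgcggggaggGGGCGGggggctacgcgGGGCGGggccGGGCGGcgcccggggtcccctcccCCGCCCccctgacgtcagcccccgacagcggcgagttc
Vtn: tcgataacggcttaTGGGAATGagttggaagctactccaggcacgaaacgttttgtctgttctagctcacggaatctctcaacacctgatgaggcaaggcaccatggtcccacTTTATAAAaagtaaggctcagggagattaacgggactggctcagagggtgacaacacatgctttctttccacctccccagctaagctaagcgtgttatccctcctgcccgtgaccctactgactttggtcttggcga
Steap4: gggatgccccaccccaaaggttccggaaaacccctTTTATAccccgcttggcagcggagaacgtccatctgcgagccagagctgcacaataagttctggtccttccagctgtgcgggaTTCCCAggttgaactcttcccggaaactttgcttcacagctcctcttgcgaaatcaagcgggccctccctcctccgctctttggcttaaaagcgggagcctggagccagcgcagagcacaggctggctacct

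Both strands were searched for 7 motifs in these windows. In Cspg4 and Mcam the capitals mark the GC box GGGCGG or its reverse complement CCGCCC, with 2 matches upstream of Cspg4 and 5 upstream of Mcam. A GC box stood in 5 of the 8 members' windows, those of Cspg4, Mcam, Anpep, Sncg and Rasl12, and in 32.9% of the windows of 27025 genes. For Rasl12 alone, the bases after the window were not found near the start of an annotated transcript of the gene. The start used for Rasl12 is therefore less certain. The GC content of the window was 60.4% for Cspg4 and 73.6% for Mcam, against a median of 52.0% over all genes.

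The windows of Vtn and Steap4 held no GC box. Their capitals mark TGGGAA, the core bound by the Notch effector RBPJ, or its reverse complement TTCCCA, and the TATA element TATAAA or its reverse complement. In Vtn the RBPJ match overlaps a match to CATTCC, the MCAT element of muscle genes, read on the other strand as GGAATG. RBPJ cores stood in 3 of 8 members' windows (Vtn, Steap4 and Tinagl1) and in 21.5% of all, TATA elements in 2 of 8 (Vtn and Steap4) and in 13% of all, and MCAT elements in 2 of 8 (Vtn and Tinagl1) and in 12.6% of all. TGANTCA, a pattern broader than the AP-1 site TGA(C/G)TCA, was found in 1 member, Tinagl1, and in 6.87% of all windows. The match in Tinagl1 was TGAATCA, which is not that narrower site. No member's window held the hypoxia element ACGTG or a CArG box, the element bound by serum response factor, which stood in 16.6% and 1.4% of all. These matches describe letters in a window and are not binding sites.

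Among surface proteins, Cspg4 differed most. It encodes NG2, a membrane-spanning chondroitin sulfate proteoglycan of mural cells and glial progenitors that binds collagen VI, and lies on chromosome 9 from 56865033 to 56899870 (ENSMUSG00000032911, mm10, plus strand). Cspg4 stood at 1339, 849 and 1430 normalized counts in Col6a1+ replicates 1, 2 and 3, and at 17, 20 and 11 in the Col6a1- replicates. Every Col6a1+ library was far above every Col6a1- library, and libraries within a group differed little by comparison. The group means were 1206 ± 313 and 16 ± 4.58 (SD, n = 3 each), a 75.4-fold ratio, and the log2 fold change was 6.15 (SE 0.38, 95% interval 5.31 to 6.99, limma adjusted p = 1.16e-04). Cspg4 was the one member called whichever single library was left out, with log2 fold changes of 5.92 to 6.39.

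Esam encodes an adhesion molecule of the immunoglobulin superfamily at endothelial junctions and on platelets. The gene (ENSMUSG00000001946) spans 37528078 to 37538319 on the plus strand of chromosome 9. Its values of 943, 971 and 1125 normalized counts in Col6a1+ replicates 1 to 3 were the most even of any member in that group, and the Col6a1- replicates had 54, 93 and 38. No library of either group came near the other group. Esam averaged 1013 ± 98.0 against 61.7 ± 28.3 (SD, n = 3 each), and rose by a log2 fold change of 4.11 (SE 0.37, 95% interval 3.30 to 4.92, limma adjusted p = 5.87e-04).

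Mcam, on chromosome 9 from 44134469 to 44142727 (ENSMUSG00000032135, plus strand), encodes CD146, an adhesion receptor of endothelium, pericytes and smooth muscle. It was at 38662, 5341 and 6072 normalized counts in Col6a1+ replicates 1 to 3 and at 1280, 606 and 715 in the Col6a1- replicates. The groups did not overlap, but Col6a1+ replicate 1 was 6.78 times the mean of the other libraries of its group, and Col6a1- replicate 1 was likewise the highest of its own. With means of 16692 ± 19030 and 867 ± 362 (SD, n = 3 each), the log2 fold change was 3.71 (SE 0.65, 95% interval 2.27 to 5.16, limma adjusted p = 0.0108). It was 2.79 to 4.22 when single libraries were left out, and passed the threshold in 2 of those 6 fits.

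Anpep encodes CD13, a membrane aminopeptidase that trims peptides outside the cell and marks pericytes as well as myeloid and brush-border cells. It spans 79821803 to 79861059 on the minus strand of chromosome 7 (ENSMUSG00000039062). Normalized counts of Anpep were 300, 60 and 72 in Col6a1+ replicates 1 to 3 and 28, 16 and 15 in the Col6a1- replicates. All Col6a1+ libraries were above all Col6a1- libraries, and replicate 1 was again the highest of each group, at 4.55 times the mean of the other Col6a1+ libraries. The means of 144 ± 135 and 19.7 ± 7.23 (SD, n = 3 each) gave a log2 fold change of 2.47 (SE 0.65, 95% interval 1.02 to 3.92) and a limma adjusted p of 0.0621, which misses the threshold. Over the alternatives tried the limma adjusted p of Anpep ran from 0.0188 to 0.414. The last was under pan-fibroblast scaling, where its log2 fold change was 0.76. The 12 epithelial genes and the 12 immune genes, from other cells that carry CD13, summed lower in the Col6a1+ libraries, the immune genes to 66 to 114 normalized counts against 182 to 429. The 10 pan-fibroblast genes summed higher there, to 42801 to 48952 against 9253 to 16702. The part of any of these cells in the values of Anpep was not tested.

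Steap4 encodes a metalloreductase of iron and copper and lies on chromosome 5 from 7960457 to 7982213 (ENSMUSG00000012428, plus strand). Its normalized counts were 3, 72 and 33 in Col6a1+ replicates 1 to 3 and 20, 58 and 13 in the Col6a1- replicates. The groups overlapped, and replicate 2 was the highest of each. Steap4 averaged 36.0 ± 34.6 and 30.3 ± 24.2 (SD, n = 3 each), and its log2 fold change of -0.27 had an SE of 1.05 and a 95% interval of -2.59 to 2.05 (limma adjusted p = 0.904). The interval reaches beyond 2 log2 units on either side of 0, so a difference of that size in either direction was not excluded at this spread. Steap4 and Vtn are the members whose upstream windows hold both an RBPJ core and a TATA element, and the part of these matches in their values was not tested.

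Of the secreted members, Vtn encodes vitronectin, a glycoprotein of plasma and matrix that binds αv integrins. The gene (ENSMUSG00000017344) spans 78499091 to 78502324 on the plus strand of chromosome 11. Vtn was at 67, 130 and 168 normalized counts in Col6a1+ replicates 1 to 3, and at 0, 7 and 0 in the Col6a1- replicates. Only 1 Col6a1- library had any count. The means were 122 ± 51.0 and 2.33 ± 4.04 (SD, n = 3 each), and Vtn rose by a log2 fold change of 5.84 (SE 0.98, 95% interval 3.68 to 8.0, limma adjusted p = 0.00851). Because of the libraries at 0 this size depends on the number added before the log, being 8.10 with 0.1 and 4.15 with 5.

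Tinagl1 encodes a secreted matrix glycoprotein related to cathepsins but without protease activity. It lies on chromosome 4 from 130164454 to 130175122 on the minus strand (ENSMUSG00000028776). Its normalized counts were 1837, 692 and 1776 in Col6a1+ replicates 1 to 3 and 468, 409 and 216 in the Col6a1- replicates. The groups did not overlap, with Col6a1+ replicate 2 closest to the Col6a1- libraries. Means of 1435 ± 644 and 364 ± 132 (SD, n = 3 each) gave a log2 fold change of 1.92 (SE 0.43, 95% interval 0.96 to 2.88, limma adjusted p = 0.0326). This was the smallest difference among the members called, and it fell to 0.17 (adjusted p = 0.756) when libraries were scaled to equal sums over the pan-fibroblast genes. Over all alternatives its adjusted p ran from 0.0161 to 0.756.

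Inside the cell, Rasl12 encodes a small GTPase of the RAS superfamily, on chromosome 9 from 65398506 to 65414853 (ENSMUSG00000041696, plus strand). It was at 507, 206 and 241 normalized counts in Col6a1+ replicates 1 to 3 and at 12, 9 and 3 in the Col6a1- replicates. All Col6a1+ libraries were far above all Col6a1- libraries. Rasl12 averaged 318 ± 165 and 8.0 ± 4.58 (SD, n = 3 each), with a log2 fold change of 5.19 (SE 0.60, 95% interval 3.88 to 6.51, limma adjusted p = 0.00158). It shares 2140 bases with Slc51b on the opposite strand, and whether reads were counted by strand is not stated. Slc51b itself had 42, 5 and 4 normalized counts in Col6a1+ replicates 1 to 3 and 4, 30 and 13 in the Col6a1- replicates.

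Ptp4a3 encodes PRL-3, a prenylated phosphatase known from metastatic colon cancer and tumor vessels. It spans 73723145 to 73758766 on the plus strand of chromosome 15 (ENSMUSG00000059895). Normalized counts were 977, 420 and 397 in Col6a1+ replicates 1 to 3 and 75, 61 and 54 in the Col6a1- replicates. The groups were well apart, and replicate 1 was the highest of each. Ptp4a3 averaged 598 ± 328 and 63.3 ± 10.7 (SD, n = 3 each) and rose by a log2 fold change of 3.10 (SE 0.40, 95% interval 2.21 to 4.0, limma adjusted p = 0.00232).

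Sncg encodes γ-synuclein, a small cytosolic protein of neurons that is also read as a mural marker. The gene (ENSMUSG00000023064) lies on the minus strand of chromosome 14 from 34370274 to 34374789. Its normalized counts were 17, 71 and 67 in Col6a1+ replicates 1 to 3 and 6, 3 and 9 in the Col6a1- replicates. The groups did not overlap, but Col6a1+ replicate 1 was nearer to the Col6a1- libraries than to the other libraries of its group. The means of 51.7 ± 30.1 and 6.0 ± 3.0 (SD, n = 3 each) gave a log2 fold change of 2.77 (SE 0.83, 95% interval 0.93 to 4.60) and a limma adjusted p of 0.0973, which misses the threshold. Without Col6a1+ replicate 1 the log2 fold change was 3.42 and the adjusted p 0.0399, and over all alternatives the adjusted p ran from 0.0135 to 0.370.

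**Figure D2:**
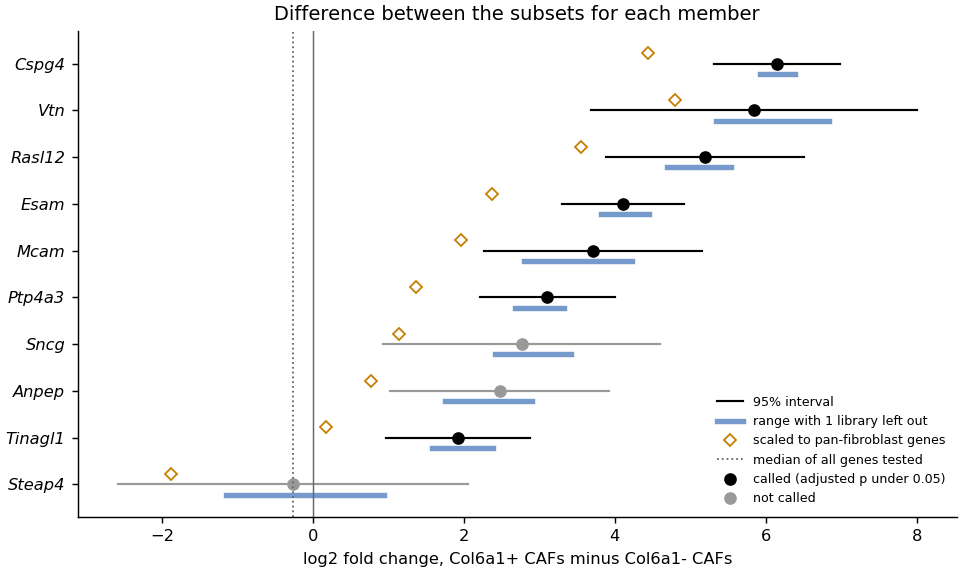
Log2 fold change of each member, Col6a1+ minus Col6a1- CAFs (circles, black where called and grey where not), with its 95% interval from limma, the range with 1 library left out (blue), the value under pan-fibroblast scaling (diamonds) and the median of all genes tested (dotted line). The estimates run from 6.15 for Cspg4 to -0.27 for Steap4, whose interval alone crosses 0, and the diamonds lie at lower values than the circles for each member.

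Ordered by log2 fold change, the members ran from Cspg4 at 6.15 through Vtn at 5.84, Rasl12 at 5.19, Esam at 4.11, Mcam at 3.71, Ptp4a3 at 3.10, Sncg at 2.77, Anpep at 2.47 and Tinagl1 at 1.92 to Steap4 at -0.27. The 95% intervals of each pair of neighbors in this order overlapped. The order was not the order of certainty, since Vtn had an SE of 0.98 and Esam one of 0.37. Of the members, 4 lie on chromosome 9, and the other 6 each on a chromosome of its own among the members.

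Libraries of the same replicate number were read as pairs, which the labels do not state. The paper counts 3 sequenced samples in all, each a tumor pool of 5 to 6 mice, and sorted both groups from the adenomas. On that reading each pool gave a library of each group, but which numbers belong together is not stated. Their deviations from the group means correlated at 0.245, 0.125 and 0.144, but Col6a1+ replicate 2 with Col6a1- replicate 3 reached 0.150. Within the pairs, the log2 difference of Cspg4 was 6.22, 5.34 and 6.90, and that of Tinagl1 was 1.97, 0.76 and 3.03. For 9 members the difference was positive in each of the 3 pairs, and for Steap4 it was -2.39, 0.31 and 1.28. No gene of the table passed an adjusted p of 0.05 in the limma fit with this block, and 4418 had an unadjusted p under 0.05, with a smallest adjusted p of 0.0612, which was also the value of Cspg4, Mcam, Esam, Rasl12 and Ptp4a3. The blocked adjusted p was 0.0729 for Vtn, 0.153 for Tinagl1, 0.105 for Anpep, 0.181 for Sncg and 0.867 for Steap4. With the block over only the 13515 genes averaging 10 or more normalized counts, 8 of the 10 members passed as higher, Anpep among them, where 7.26% of those genes did. Of the 8, Vtn and Rasl12 averaged 2.33 and 8.0 in the Col6a1- libraries and entered this fit only through their Col6a1+ values.

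The count of members called also depended on single libraries. It was 7 without Col6a1+ replicate 1, where Sncg passed and Tinagl1 did not, and 6 without Col6a1+ replicate 2. It fell to 4 without Col6a1+ replicate 3, to 1 without Col6a1- replicate 1, to 4 without Col6a1- replicate 2 and to 3 without Col6a1- replicate 3. Calls as higher over all genes fell too, from 703 of 26402 to 11 of 25839 without Col6a1- replicate 1. They were 180 of 25362 without Col6a1- replicate 2, 102 of 25299 without Col6a1- replicate 3 and 179 of 25810 without Col6a1+ replicate 3. Without Col6a1+ replicate 1 or 2 they were 453 of 26150 and 292 of 25472. In each of these fits 9 members were higher at a limma unadjusted p under 0.05. Over all genes 2501 of 26150 were without Col6a1+ replicate 1, the most, and 1391 of 25299 without Col6a1- replicate 3, the fewest. Cspg4 passed in each of these fits, and Esam and Rasl12 in all but the one without Col6a1- replicate 1. Ptp4a3 passed when any Col6a1+ library was left out and in no fit without a Col6a1- library. Mcam passed only without Col6a1+ replicate 1 or 2, Vtn only without Col6a1+ replicate 1 or Col6a1- replicate 2, and Tinagl1 only without Col6a1+ replicate 2. In these fits the log2 fold changes of the 9 members other than Steap4 stayed positive, with a lowest value of 1.58 for Tinagl1.

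Members did not vary alike among the Col6a1+ libraries. Replicate 1 was the highest of the 3 for Anpep, Mcam, Ptp4a3, Rasl12 and Tinagl1, and the lowest for Esam, Sncg, Steap4 and Vtn. The gap was widest for Mcam, at 6.78 times the mean of replicates 2 and 3, and for Steap4, where the mean of replicates 2 and 3 was 17.5 times replicate 1. Replicates 2 and 3 differed from each other by at most 1.29-fold for 7 members, and by 1.68-fold for Cspg4, 2.18-fold for Steap4 and 2.57-fold for Tinagl1. The same 5 genes, Anpep, Mcam, Ptp4a3, Rasl12 and Tinagl1, were also highest in replicate 1 among the Col6a1- libraries, and Col6a1- replicate 3 was the lowest of its group for 8 members. Col6a1+ replicate 1 is the library with the fewest genes detected, and the part of this in the members' values was not tested.

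**Figure D3:**
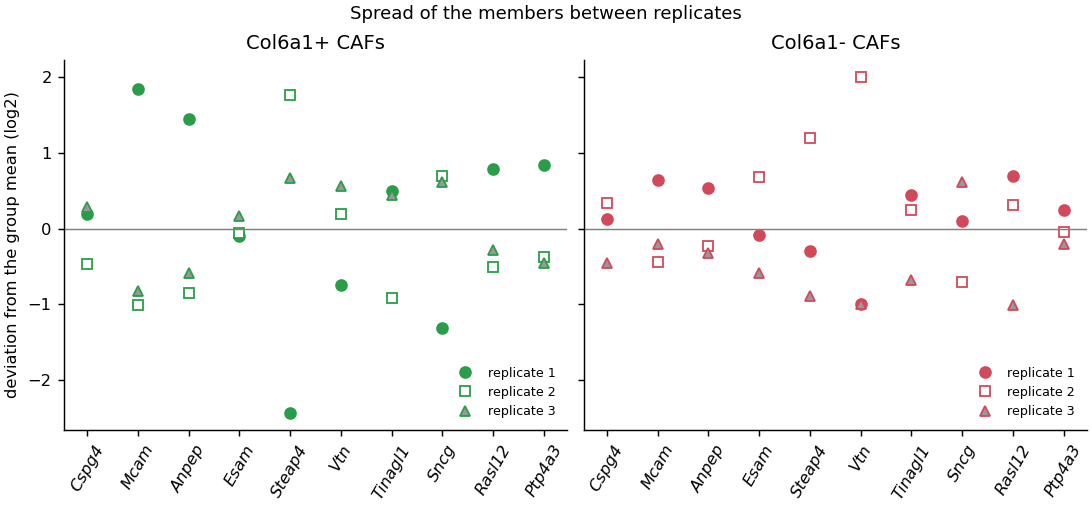
Deviation of each library from the mean of its group, in log2(normalized count + 1), for each member, with Col6a1+ CAFs in the left panel, Col6a1- CAFs in the right and a symbol for each replicate. In the left panel replicate 1 lies above the others for Anpep, Mcam, Ptp4a3, Rasl12 and Tinagl1 and below them for Esam, Sncg, Steap4 and Vtn, and in the right panel it is highest for the same 5 genes.

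Likeness of pattern was measured by Pearson's r of log2 values over the 6 libraries, among 13515 genes averaging 10 or more normalized counts. It is a description, since the points share 2 groups and any gene that differs between them scores high. Genes much like Cspg4 were Col5a3, a chain of type V collagen (r = 0.999), and Sertad4 (r = 0.997). Nearest to Anpep were Crem, a cAMP-responsive transcription factor (r = 0.996), Mcam (r = 0.995) and Rom1 (r = 0.995), so that a surface member of the same panel was among its nearest. Vtn was most like Fkbp10, a collagen chaperone (r = 0.998), the lincRNA Gm13861 (r = 0.997) and Zfp703 (r = 0.997).

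Other genes known from pericytes were mostly higher in the same libraries. Of 26 such genes, 21 passed as higher in Col6a1+ CAFs and 0 as lower (23 and 0 at an unadjusted p under 0.05), and their median log2 fold change was 5.06. Heyl, a Notch target, was at 534, 229 and 325 normalized counts in Col6a1+ replicates 1 to 3 and at 1 in each Col6a1- library. Its Col6a1+ mean was 121 times a floor of 3 counts per library. Higd1b, a mitochondrial protein of pericytes, had 33, 140 and 144 normalized counts in Col6a1+ replicates and 0 in each Col6a1- library, with a Col6a1+ mean 35.2 times that floor. These 2 genes were at or under the floor in each Col6a1- library.

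The remaining genes named by the rule were Ndufa4l2, a mitochondrial protein, Rgs5 and Rgs4, which damp G-protein signaling. Their log2 fold changes were 6.53 (SE 0.79, limma adjusted p = 0.00190) for Ndufa4l2, 6.16 (SE 0.35, adjusted p = 1.01e-04) for Rgs5 and 6.02 (SE 0.38, adjusted p = 1.16e-04) for Rgs4. Rgs5 had 42173, 29648 and 31282 normalized counts in Col6a1+ replicates 1 to 3 and 297 to 700 in Col6a1- libraries. Not called were Tbx18, Trpc6, Angpt1, Angpt2 and Plxdc1. With the replicate block over all genes 0 of the 26 passed in limma, although 23 had an unadjusted p under 0.05. With the block over genes averaging 10 or more 21 passed, an average that Heyl and Higd1b reached only through the Col6a1+ libraries. Without Col6a1- replicate 1 the count fell to 5, and without Col6a1- replicate 3 to 14.

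Genes of vascular smooth muscle were mostly higher too, with a smaller median. Of 16, 12 passed as higher and 0 as lower (13 and 0 at an unadjusted p under 0.05), and their median log2 fold change was 2.81. The largest were Kcnmb1, a subunit of a calcium-activated potassium channel, at 4.13 (SE 0.82, limma adjusted p = 0.0182), and Acta2, smooth muscle actin, at 3.88 (SE 0.55, adjusted p = 0.00353). Myh11 at 3.65, Tagln at 3.49 and Tpm2 at 3.35, all parts of the contractile apparatus, followed. Cnn1, Smtn, Itga8 and Pln were not called. The count fell to 4 without Col6a1+ replicate 1, to 3 without Col6a1+ replicate 3, to 0 without Col6a1- replicate 1 (13 at an unadjusted p under 0.05), to 3 without Col6a1- replicate 2 and to 4 without Col6a1- replicate 3. It was 0 with the replicate block over all genes, with 13 at an unadjusted p under 0.05, and 5 under pan-fibroblast scaling.

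**Figure D4:**
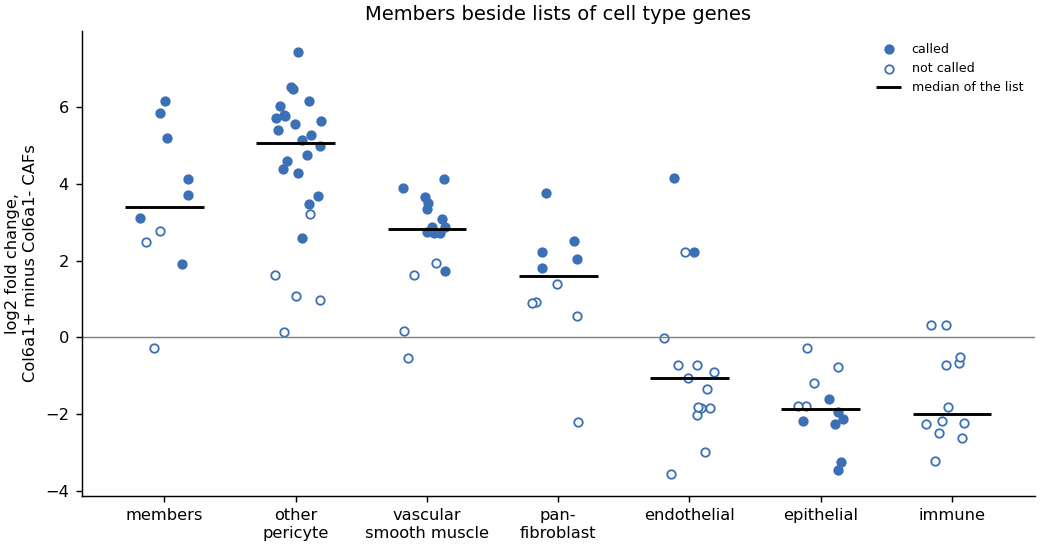
Log2 fold changes, Col6a1+ minus Col6a1- CAFs, of the members and of 6 lists of cell type genes, each point a gene, filled where called, and each bar the median of a list. The medians are 3.41 for the 10 members, 5.06 for the other pericyte genes, 2.81 for vascular smooth muscle and 1.6 for pan-fibroblast genes, against -1.07 for endothelial, -1.87 for epithelial and -2.01 for immune genes.

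Since Esam and Mcam are also endothelial, the endothelial list was read beside them. Of its 15 genes, 2 passed in limma as higher, Tie1 and Eng, and 0 as lower (3 and 3 at an unadjusted p under 0.05), and the median log2 fold change was -1.07. Under pan-fibroblast scaling the counts turned to 0 higher and 8 lower, and leaving out any 1 of the 6 libraries left 0 calls, with 3 genes still higher at an unadjusted p under 0.05. The list summed to 834 to 1203 normalized counts in Col6a1+ and 464 to 999 in Col6a1- CAFs.

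Endothelial genes did not move alike. Tie1, an endothelial receptor, was at 220, 56 and 152 normalized counts in Col6a1+ replicates 1 to 3 and at 1, 7 and 21 in the Col6a1- replicates. Flt1, a VEGF receptor, was at 280, 276 and 466 against 24, 91 and 159, with a log2 fold change of 2.21 that did not pass. Eng had the same log2 fold change and passed.

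Pecam1, which encodes the depletion marker CD31, stood at 0, 21 and 27 normalized counts in Col6a1+ replicates 1 to 3 and at 13, 64 and 44 in the Col6a1- replicates. Cdh5 was at 10, 4 and 9 against 39, 24 and 24, and Plvap at 26, 88 and 120 against 75, 215 and 116. No gene of the list was at 0 in all Col6a1+ libraries, and the part of endothelial RNA in the values of Esam and Mcam was not tested.

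For Sncg, a gene of neurons, the 10 enteric neuron genes summed to 133 to 311 normalized counts in Col6a1+ and 143 to 244 in Col6a1- CAFs. In limma 0 of the 9 tested passed an adjusted p of 0.05, with 1 higher and 1 lower at an unadjusted p under 0.05. The higher gene was Uchl1, a neuronal deubiquitinase, at 207, 50 and 126 normalized counts in Col6a1+ replicates 1 to 3 and 54, 8 and 19 in the Col6a1- replicates, a log2 fold change of 2.36. The lower gene was Syt1, at 1, 8 and 0 against 50, 3 and 30, a log2 fold change of -2.82. The median log2 fold change of the list was -0.33. The list had 1 call higher with the replicate block over genes averaging 10 or more, and 3 lower under pan-fibroblast scaling.

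Enteric glial genes summed to 63 to 93 normalized counts in Col6a1+ and 70 to 132 in Col6a1- CAFs, and erythroid genes to 110 to 1713 and 281 to 482. In limma 0 of 12 immune, 8 glial and 5 tested erythroid genes passed. At an unadjusted p under 0.05, 5 immune genes were lower and 0 higher, 1 glial gene was higher and 1 lower, and 0 erythroid genes stood out. Under pan-fibroblast scaling 7 immune, 1 glial and 2 erythroid genes passed as lower and 0 as higher. Interstitial cell genes summed to 394 to 621 in Col6a1+ against 189 to 290 in Col6a1- CAFs, with Ano1 passing as higher. Ano1 made up most of the Col6a1+ sums, at 292, 476 and 564 against 73, 151 and 151. Kit was lower, at 0, 0 and 5 against 15, 12 and 14, and was not called. At a limma unadjusted p under 0.05, 2 of the 4 tested interstitial genes were higher and 1 lower. Mesothelial genes summed to 53 to 136 against 498 to 667, with Krt7 passing as lower. Under pan-fibroblast scaling 2 interstitial and 2 mesothelial genes passed as lower and 0 as higher. The part of these cells in the members' values was not tested.

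Of 40 relatives and binding partners of the members, 7 passed as higher in Col6a1+ CAFs and 1 as lower, where 2.66% and 1.96% of all genes tested did. Under pan-fibroblast scaling 2 passed as higher and 16 as lower, where 210 and 8293 of the 26402 genes did. Their median log2 fold change was -0.33. Around Vtn, 3 of 8 partner genes rose, namely Itgb1 by 1.88 (SE 0.38, limma adjusted p = 0.0208), Itgb3 by 3.17 (SE 0.64, adjusted p = 0.0201) and Itgb5 by 2.68 (SE 0.35, adjusted p = 0.00232) on the log2 scale. Under pan-fibroblast scaling these integrins were at 0.13, 1.42 and 0.93 and did not pass. Their common partner Itgav, the αv chain, had a log2 fold change of 0.67 and did not pass. Itgb5 was at 836, 858 and 968 normalized counts in Col6a1+ replicates 1 to 3 and at 169, 183 and 84 in the Col6a1- replicates, without overlap.

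Near Esam in its family, Jam3, a junctional adhesion molecule, rose by 2.43 on the log2 scale (SE 0.43, limma adjusted p = 0.0106), and by pan-fibroblast scaling its value was 0.70, which did not pass. Cxadr, the coxsackievirus and adenovirus receptor of epithelial junctions, fell by 3.12 (SE 0.56, adjusted p = 0.0115). Of the 6 aminopeptidases beside Anpep, 1 passed, Enpep, itself a pericyte marker, with 139, 45 and 95 normalized counts in Col6a1+ replicates 1 to 3 and 1, 2 and 0 in the Col6a1- replicates. Its Col6a1+ mean was 31.0 times the floor. Among the 5 proteoglycans related to Cspg4, Acan, the cartilage proteoglycan aggrecan, passed at 11, 16 and 15 against 0 in each Col6a1- library, with a Col6a1+ mean 4.67 times the floor. Among the 5 relatives of Rasl12, Rerg passed, at a log2 fold change of 3.42 (SE 0.66, adjusted p = 0.0157), and did not under pan-fibroblast scaling, at 1.76. Leaving out Col6a1- replicate 1 ended every call among the relatives, with 14 still at an unadjusted p under 0.05, and the other 5 libraries in turn left 1 to 7.

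The relatives of Mcam, Steap4, Ptp4a3 and Tinagl1 gave no call. For Ptp4a3, the log2 fold change of Ptp4a1 was -0.54 and that of Ptp4a2 was -0.39, and under pan-fibroblast scaling both passed as lower, at -2.29 and -2.14. Those of Steap1, Steap2 and Steap3 were 0.15, 0.99 and 0.0. Bcam, the highest of the relatives of Mcam, was at 1.45, Sncb, a relative of Sncg, was at -0.33 and was not called, and Tinag was at -1.83.

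**Figure D5:**
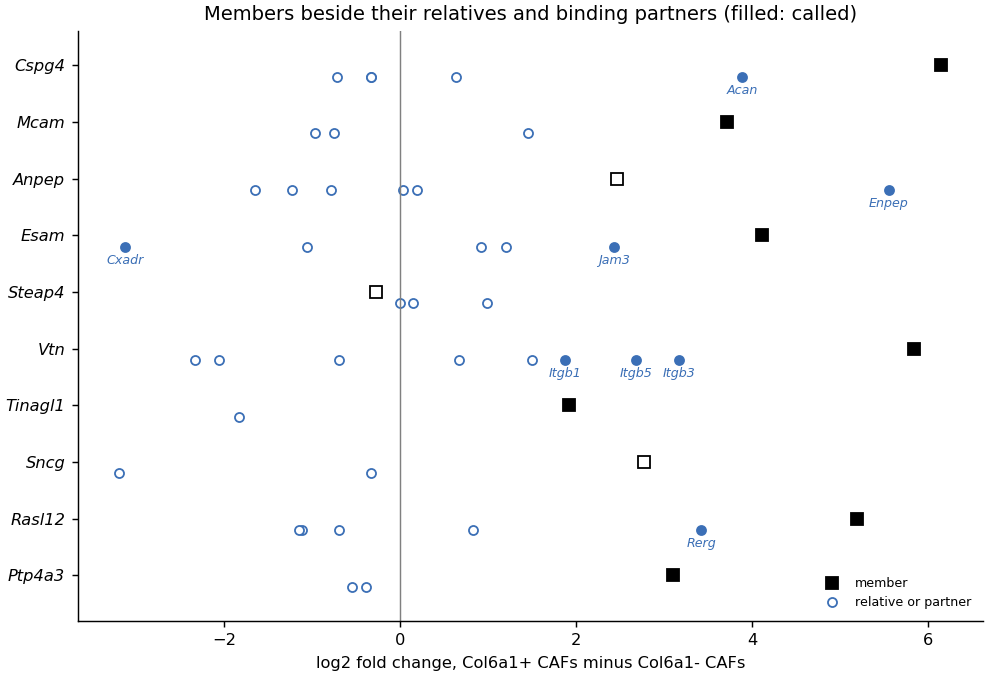
Log2 fold changes, Col6a1+ minus Col6a1- CAFs, of each member (squares) and of its relatives and partners (circles, 40 in all), in a row for each member, with symbols filled and relatives named where called. Enpep at 5.55, Acan at 3.89, Rerg at 3.42 and Itgb3 at 3.17 lie highest among the relatives, and Cxadr at -3.12 is lowest of those called.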

How the data were processed

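Normalized expression of 6 libraries, 3 per group, was analysed, with groups and replicate numbers taken from the labels. The members and gene lists were chosen with earlier results of these data known. The authors mapped QuantSeq 3′ reads to mm10 with TopHat2 and the remainder with Bowtie2, took read counts per gene and scaled these with size factors from DESeq. Their deposited values are the log2 of the normalized count plus 1, whole normalized counts in 100% of values (tolerance 1e-06). Their deposited GC content, a fraction of each gene's bases, served 1 alternative. Another 6 columns of per-sample values were not used, nor were the authors' columns of p-values, false discovery rates and fold changes. Whether counting used strand is not given in the sources used here. Depth in reads is not recorded in the table. The floor of 3 normalized counts for a count of 0 takes counting error only, as for raw reads, although the values were divided by size factors. Ratios to this floor are ratios of a mean and are not lower bounds.

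The 26402 genes with at least 1 summed normalized count were fitted with limma 3.58.1 in R 4.3.3 (eBayes with trend, two-sided, 6.48 prior and 4 residual degrees of freedom), with Benjamini-Hochberg adjustment over all of them. Calls needed an adjusted p under 0.05. Fold changes are on the log2(normalized count + 1) scale and understate the change of low genes. The fit was tested on simulated data. Libraries of the same replicate number had correlations of 0.245, 0.125 and 0.144 between their deviations from the group means over the 13515 genes averaging 10 or more normalized counts, each over 0.1, so the numbers were read as pairs. For different numbers they were between -0.245 and 0.150, the highest being over 0.1 too, so this rule did not single out the same numbers. The main fit did not use the pairs. The genes named are all members, the 5 called genes with the largest log2 fold change and a mean of at least 10 from the pericyte and smooth muscle lists, every relative called, and the 3 nearest patterns to Cspg4, Anpep and Vtn. Some genes of these lists are not reported here. Genes named as not called, and single markers of other cell types, were added after their values were seen. The alternatives were other scalings, filters, pseudocounts of 0.1 and 5, limma-voom, array quality weights, the replicate block, a rule of unadjusted p under 0.05 plus a log2 fold change beyond 1 either way, and leaving out each library. Scaling to the pan-fibroblast genes was added after seeing the data. Promoter windows came from RefSeq on GRCm38.p6. Tables and plots were made with Python 3.11.15, pandas 2.3.3, NumPy 2.4.6 and Matplotlib 3.10.9.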

Additional observations from a re-analysis of the deposited data

How the results depend on the processing

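Members passing as higher numbered 6 to 9, beside 7, under library size scaling, both filters on a mean or a minimum of 10, limma-voom, pseudocounts, array quality weights, pan-fibroblast scaling, unadjusted p-values and the replicate block over genes with a mean of at least 10. With the replicate block over all genes, alone or with a GC correction, counts fell to 0 for the members, the 1220 genes called, the other pericyte genes (from 21), smooth muscle genes (12) and relatives (8). In these fits 9 members had an unadjusted p under 0.05, as had 4418 genes with the block alone and 4208 with the GC correction. Without a filter they were 1, 28, 5, 0 and 0, where many genes at 0 enter the test. There 9 members had an unadjusted p under 0.05, as had 3794 of 49548 genes. Leaving out single libraries gave 1 to 7 members, 12 to 895 genes, 5 to 21 pericyte, 0 to 8 smooth muscle and 0 to 7 relatives called, and medians of 3.11 to 3.71. The replicate block and a mean of at least 10 gave 1852 genes, array quality weights 2000 and unadjusted p-values 3880, with 14 relatives. At least 10 in every library left 8 pericyte genes, since fewer were tested. Pan-fibroblast scaling shifted the median of all genes by -1.05, and gave 8503 genes, 5 smooth muscle genes, 18 relatives and a members' median of 1.66. No member passed as lower under any alternative. Steap4 changed sign to 0.45 with array quality weights, 0.94 without Col6a1+ replicate 1 and 0.33 without Col6a1- replicate 2, never passing, and with single libraries left out its values ran from -1.15 to 0.94. The cause of these changes was otherwise not tested. Of 176 values for single members, 128 kept direction and side of the threshold, 40 lost it, 5 gained it and 3 changed sign. Each group had 3 libraries, and the part of their spread in these calls was not tested.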
